A study of Mus musculus with 8 samples.

Results

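The 7 genes described here are mouse *Ms4a7*, *Ms4a4a*, *Ms4a4b*, *Ms4a4c*, *Ms4a6b*, *Ms4a6c* and *Ms4a6d*, membrane protein genes of the Ms4a (membrane-spanning 4-domains subfamily A) family. They were taken by symbol from the 55573 genes of the count table, and all 7 were among the 20153 genes tested, which had 10 counts or more in 4 or more of 8 libraries. They were selected on their measured difference between mutants and controls, so its size is given below as a description, with no p-value for any member. The libraries are microglia sorted from brains at postnatal day 60, 1 library per mouse, from 4 mutants labelled SmadKO and 4 littermates labelled wild-type. The mutants are *Smad2/3* fl/fl;*Cx3cr1* Cre mice, in which floxed alleles of the TGFβ signal transducers *Smad2* and *Smad3* are deleted wherever Cre is made from the *Cx3cr1* locus, which includes macrophages at the brain borders as well as microglia. The study's methods say that controls generally carried Cre and a floxed allele, whereas the labels do not mention either in the controls.

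Ms4a proteins cross the membrane several times and sit at the cell surface or in endosomes, where they associate with immune receptors and tune their signalling. The founding members are CD20 (*Ms4a1*) of B cells, the β chain of the mast cell IgE receptor (*Ms4a2*) and *Ms4a3* of myeloid progenitors. In the brain, *Ms4a7* is known as a marker that separates macrophages of the meninges, perivascular space and choroid plexus from homeostatic microglia, and in humans the MS4A gene cluster is linked to Alzheimer's disease risk and to soluble TREM2.

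The 7 genes lie within 284 kb of chromosome 19 (chr19:11321039-11604849, GRCm38, GENCODE M21), inside a cluster of 21 Ms4a genes that spans 679 kb. *Ms4a7* (ENSMUSG00000024672, chr19:11321039-11336146) and *Ms4a6d* (chr19:11586604-11604849) are on the minus strand. *Ms4a4a* (chr19:11375523-11392790), *Ms4a4c* (chr19:11404770-11427246), *Ms4a4b* (chr19:11443553-11467055), *Ms4a6c* (chr19:11469366-11482192) and *Ms4a6b* (chr19:11516512-11531256) are on the plus strand, in this order. Their coding sequences fall into related sets. *Ms4a4b* and *Ms4a4c* are 91.8% identical over 681 aligned bases, *Ms4a6b* and *Ms4a6c* 86.3% over 644, and *Ms4a6b* and *Ms4a6d* 81.8% over 732. *Ms4a7* is 64.3 to 69.0% identical to each of the other 6 over the bases that align.

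The 250 bases before a RefSeq transcription start (GRCm38.p6) were read for the 6 members in the promoter table. They are shown for 5 genes, because the members with the largest differences (*Ms4a7*, *Ms4a4a*, *Ms4a6c*) and the near-identical pair whose groups overlapped (*Ms4a4b*, *Ms4a4c*) can then be compared. Capitals mark, on either strand, the PU.1 core GAGGAA, the ETS word GGAAGT and the SMAD box CAGAC. PU.1 is the ETS-family factor of myeloid cells. The word GGAAGT was added after the sequences had been seen. The sequences run 5′ to 3′ on the gene's strand.
Ms4a7 (chr19:11336147-11336396, minus strand): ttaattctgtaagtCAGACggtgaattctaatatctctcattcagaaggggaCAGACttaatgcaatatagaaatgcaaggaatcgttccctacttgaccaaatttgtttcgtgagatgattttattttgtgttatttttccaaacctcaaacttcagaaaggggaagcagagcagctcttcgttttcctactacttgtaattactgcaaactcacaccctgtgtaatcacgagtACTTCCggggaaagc
Ms4a4a (chr19:11375238-11375487, plus strand): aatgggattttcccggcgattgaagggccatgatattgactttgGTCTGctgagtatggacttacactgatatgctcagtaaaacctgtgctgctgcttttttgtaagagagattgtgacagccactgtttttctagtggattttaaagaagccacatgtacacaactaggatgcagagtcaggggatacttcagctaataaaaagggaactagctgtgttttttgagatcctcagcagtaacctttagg
Ms4a6c (chr19:11469118-11469367, plus strand): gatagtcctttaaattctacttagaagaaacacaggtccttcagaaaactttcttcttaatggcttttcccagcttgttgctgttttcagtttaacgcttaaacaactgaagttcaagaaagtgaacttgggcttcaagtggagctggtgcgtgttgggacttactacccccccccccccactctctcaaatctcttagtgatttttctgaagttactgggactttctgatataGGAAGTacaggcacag
Ms4a4b (chr19:11443308-11443557, plus strand): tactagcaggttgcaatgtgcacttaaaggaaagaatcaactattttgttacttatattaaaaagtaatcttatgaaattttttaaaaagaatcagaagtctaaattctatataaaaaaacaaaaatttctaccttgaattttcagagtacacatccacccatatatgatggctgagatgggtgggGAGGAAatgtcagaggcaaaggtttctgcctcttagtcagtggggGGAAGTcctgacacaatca
Ms4a4c (chr19:11407411-11407660, plus strand): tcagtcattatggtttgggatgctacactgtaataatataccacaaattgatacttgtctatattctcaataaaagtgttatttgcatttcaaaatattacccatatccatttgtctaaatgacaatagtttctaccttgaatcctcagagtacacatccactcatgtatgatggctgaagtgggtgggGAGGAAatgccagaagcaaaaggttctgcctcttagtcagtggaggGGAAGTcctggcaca
The windows of *Ms4a7* and *Ms4a4a* lie outside the GENCODE genes, those of *Ms4a6c* and *Ms4a4b* reach 2 and 5 bases into the first exon, and that of *Ms4a4c* lies inside the GENCODE gene but in no exon.

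The windows of *Ms4a4b* and *Ms4a4c* matched at 80.1% of 231 aligned bases and shared an exact run of 20 bases, and both held GAGGAA (from 64 and 61 bases before the start) and GGAAGT (from 19 and 15). The windows of *Ms4a6b* and *Ms4a6c* matched at 85.1% of 175 aligned bases and shared a run of 48 bases around GGAAGT, which begins 118 bases before the *Ms4a6b* start and 49 before the *Ms4a6c* start. The *Ms4a6b* window lies inside the GENCODE gene and 106 of its bases are *Ms4a6b* exon, so part of this likeness may be exon sequence. Other pairs matched at 58.5 to 64.7% of aligned bases. Over 7 windows of 6 members (*Ms4a7* has a second start), GGAAGT was in 5, GAGGAA in 2 and CAGAC in 2, against 19.7%, 23.3% and 42.2% of 32851 promoters. GGAAGT was picked from these same sequences, so its count cannot be weighed against that share. The windows that hold it also include both like pairs, *Ms4a4b* with *Ms4a4c* and *Ms4a6b* with *Ms4a6c*, which are not independent. CAGAC occurred in *Ms4a7* (236 and 198 bases before the start) and *Ms4a4a* (206). The AP-1 word TGANTCA was in the second *Ms4a7* window only (6.75% of promoters), and the MAF word TGCTGAC was in none (3.81%). That second window lies inside the GENCODE gene but in no exon. These matches are of letters, and binding was not measured.

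The targeted genes were examined first. *Smad3* was lower in mutants than in controls (log2 difference -1.33, SE 0.36, adjusted p = 0.0429, edgeR), and all 4 mutants were below all 4 controls. SmadKO replicate 3 kept 35.1 CPM of *Smad3*, where the remaining mutants had 9.60 to 17.5. Without any 1 of the mice other than that one the adjusted p was between 0.0565 and 0.110. *Smad2* did not pass the test (-0.34, SE 0.22, adjusted p = 0.340), and its gene-level counts include exons outside the floxed part. *Xist* was at 99.3 to 183 CPM in controls and at most 0.561 CPM in mutants, while Y-linked genes were read in mutants only at more than trace level, so sex and genotype cannot be told apart. The sort was of microglia, and 8 of 9 microglial markers, all detected in every library, were lower in mutants (summed 5687 to 7969 CPM against 31288 to 47667). Libraries held 35639502 to 41946479 counts, and differences between mice within a group were larger than counting noise in every pair.

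All 7 members had a higher mean in mutants than in controls, by a fitted log2 difference of 1.13 to 6.98 (median 2.05, against 0.01 over all tested genes). By edgeR's quasi-likelihood test 5 of the 7 were called at an adjusted p-value under 0.05, all higher, where 12.3% of all tested genes were called in either direction 4.36% higher and 7.97% lower. The same 5 had all 4 mutants above all 4 controls, as did 9.04% of tested genes. The rule used this contrast, so these counts describe the members and are not read as evidence. In bulk RNA, more cells of a type that carries a transcript and more transcript per cell cannot be told apart.

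**Figure D1:**
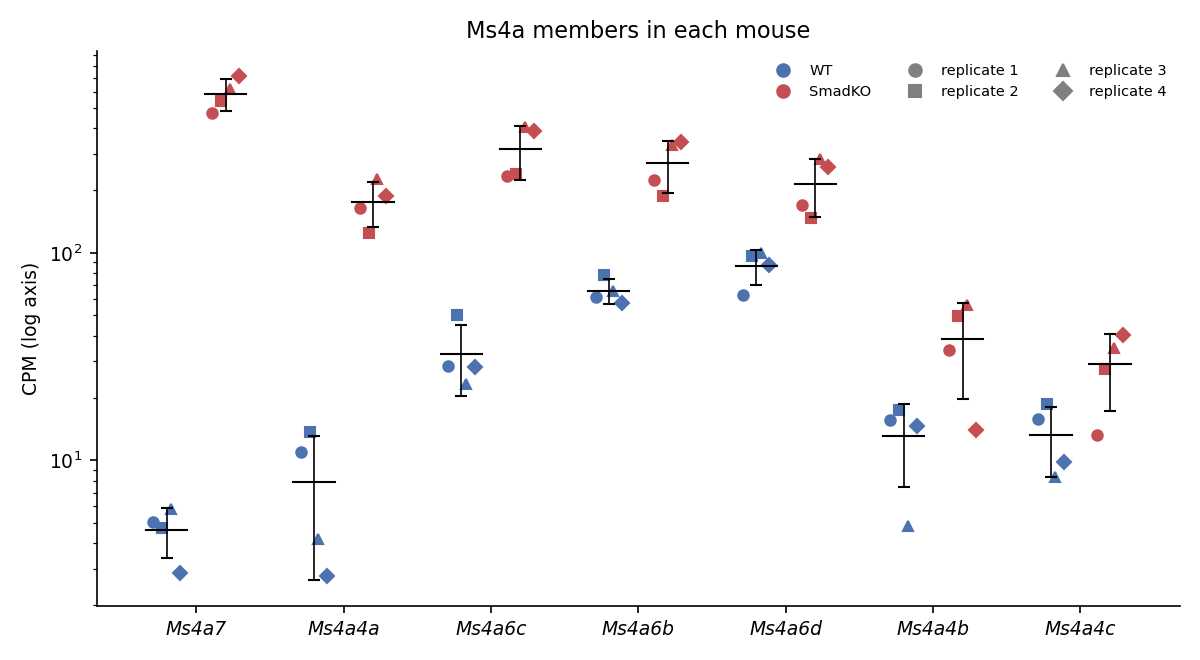
CPM of the 7 members in each mouse (log axis), blue for WT and red for SmadKO, with a marker shape for each replicate number and black lines for the mean ± SD of 4 mice. *Ms4a7*, *Ms4a4a*, *Ms4a6c*, *Ms4a6b* and *Ms4a6d* separate the groups in every mouse, whereas SmadKO replicate 4 for *Ms4a4b* and SmadKO replicate 1 for *Ms4a4c* lie among the controls.

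*Ms4a7*, the brain border macrophage marker, showed the widest gap. CPM are counts scaled to the TMM-adjusted library total. In controls 1 to 4 *Ms4a7* was at 5.06, 4.73, 5.84 and 2.87 CPM. In mutants 1 to 4 it was at 472, 539, 618 and 713 CPM. Even the highest control was far below the lowest mutant, and the mutants were the more even group, with an SD of 17.8% of the mean against 27.2% in controls. The fitted difference was 6.98 on the log2 scale (SE 0.30), or 126-fold with 103 and 155 at 1 SE on either side. The control values rest on 107 to 209 counts per library, so the gene was detected in every control mouse.

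*Ms4a4a* encodes a tetraspanin-like protein of macrophages that associates with the fungal glucan receptor Dectin-1 (*Clec7a*). It was at 11.0, 13.6, 4.16 and 2.77 CPM in controls 1 to 4 and at 164, 125, 227 and 189 CPM in mutants 1 to 4. Controls 1 and 2 were well above controls 3 and 4, but no control came near a mutant. The fitted difference was 4.48 (SE 0.53), or 22.3-fold. The SD in controls was 66.5% of the mean, which made *Ms4a4a* the least even member among controls.

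The 3 Ms4a6 genes are the mouse counterparts of human MS4A6A, a myeloid gene. *Ms4a6c* was at 28.5, 50.4, 23.3 and 28.3 CPM in controls and at 236, 240.4, 406 and 387 CPM in mutants, a fitted difference of 3.28 (SE 0.31). *Ms4a6b* was at 61.4, 78.2, 65.7 and 57.6 CPM in controls and at 225, 188, 331 and 342 CPM in mutants, a difference of 2.05 (SE 0.23). *Ms4a6d*, whose product is known to associate with the macrophage receptor VSIG4, was at 62.6, 96.3, 100.4 and 87.6 CPM in controls and at 170.1, 148, 285 and 259 CPM in mutants, a difference of 1.31 (SE 0.25). For each of the 3 genes mutants 3 and 4 were above mutants 1 and 2, and no mutant overlapped the controls.

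*Ms4a4b* and *Ms4a4c* were the members whose groups overlapped, and neither was called by edgeR in the main fit, whereas DESeq2 called both. *Ms4a4b* is known from T cells, where its product modulates activation. It was at 15.6, 17.4, 4.81 and 14.7 CPM in controls and at 34.2, 49.5, 56.2 and 14.1 CPM in mutants, a fitted difference of 1.55 (SE 0.49). Mutants 1 to 3 were above every control, and mutant 4 was below 3 of the 4 controls. The difference was 1.83 without SmadKO replicate 4.

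*Ms4a4c* is abundant in Ly6C-high monocytes. It was at 15.9, 18.8, 8.36 and 9.86 CPM in controls and at 13.2, 27.6, 34.9 and 40.3 CPM in mutants, a fitted difference of 1.13 (SE 0.38). Here it was mutant 1 that lay among the controls, while the other 3 were above all of them. The difference was 1.37 without SmadKO replicate 1. *Ms4a4b* and *Ms4a4c* therefore had different mice in the overlap, although their coding sequences are nearly identical and 135 of the 1747 different 50-base words of *Ms4a4c* transcripts also occur in *Ms4a4b*.

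Levels were compared between genes per kb of exon, with all annotated exons of a gene merged. In controls *Ms4a6d* led with 49.97 ± 9.77 CPM per kb (SD, n = 4), above *Ms4a6c* in every mouse. *Ms4a6c* (15.9 ± 5.90), *Ms4a6b* (14.6 ± 1.996), *Ms4a4a* (9.44 ± 6.28) and *Ms4a4c* (7.55 ± 2.82) followed, and each overlapped the next in range. *Ms4a4b* (1.496 ± 0.645) and *Ms4a7* (1.04 ± 0.282) were last, both below *Ms4a4c* in every mouse. The control libraries were thus mainly *Ms4a6d* among these genes, with 40.6 to 60.6% of the summed CPM per kb, and *Ms4a7* gave 0.730 to 1.37%.

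In mutants the order was different. *Ms4a4a* led with 211 ± 50.9 CPM per kb, followed by *Ms4a6c* (155 ± 44.8), *Ms4a7* (132 ± 23.3) and *Ms4a6d* (124 ± 38.5), and neighbours in this order overlapped in range. *Ms4a6b* (60.5 ± 17.1) was below these 4 in every mouse, then *Ms4a4c* (16.6 ± 6.70) and *Ms4a4b* (4.38 ± 2.13). The share of *Ms4a6d* was 15.9 to 18.8% in mutants, that of *Ms4a4a* 27.4 to 34.0% and that of *Ms4a7* 15.9 to 22.5%. The order depends on the length used, which was varied after seeing the data. With the longest coding transcript of each gene, *Ms4a7* was first in mutants at 371 ± 65.9 CPM per kb, above *Ms4a4a* in every mouse, and its share was 31.6 to 41.5%. *Ms4a7* has merged exons of 4453 bases and a longest coding transcript of 1576.

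**Figure D2:**
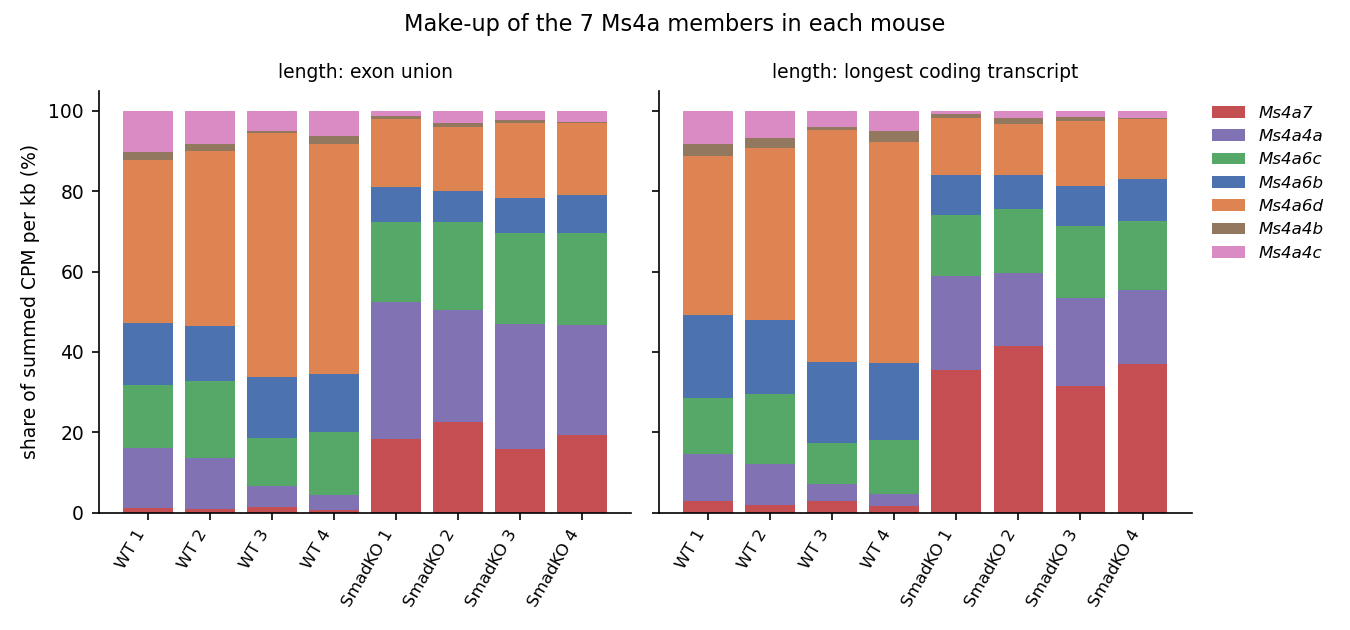
Share of each member in the summed CPM per kb of the 7 genes (%, stacked bars, 1 bar per mouse), with merged exons as length on the left and the longest coding transcript on the right. The *Ms4a6d* share is at least 39.6% in every control and at most 18.8% in every mutant under both lengths.

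Around the group means, the members did not move as 1 block across mice. Deviations of log2 CPM from the group mean correlated across the 8 libraries at 0.85 between *Ms4a6b* and *Ms4a6d*, 0.82 between *Ms4a6b* and *Ms4a6c* and 0.79 between *Ms4a6c* and *Ms4a4c*. Those of *Ms4a4b* correlated with the other 6 at -0.50 to 0.28. These values are descriptions over 8 points that share library and depth.

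Genes outside the family with the most similar pattern were searched among 10334 genes whose mean reached 3 log2 CPM, by Pearson correlation over the 8 libraries. For *Ms4a4b* they were *Agpat4* (0.971), *Nkg7* (0.967) and *Cd3g* (0.963), with 0.95, 0.97 and 0.93 on deviations from group means. For *Ms4a6c* they were the lysozymes *Lyz1* and *Lyz2* (both 0.998) and *Xaf1* (0.996), and for *Ms4a4a* *Cd300ld* (0.997), *Cybb* (0.995) and *Pla2g7* (0.994), all with at least 0.92 on the deviations. The nearest to *Ms4a7* were *Gpr65* (0.998), *Gadd45g* (0.995) and *Cd207* (0.994), whose correlations on the deviations were 0.74, 0.22 and 0.27, so the likeness of the last pair came mostly from the group difference. *Ms4a6b* was most like *Ccl3* (0.994), *Id2* (0.990) and *Cxcl2* (0.989), and *Ms4a6d* most like *Sap30* (0.988), *Bambi* (0.987) and *Il10rb* (0.981). *Ms4a4c* was most like *Mrpl40* (0.959), *Gm12854* (0.950) and *Mgst1* (0.939).

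The markers of other cells were set beside the members. Of 8 T and NK cell markers, *Nkg7*, a granule protein of cytotoxic lymphocytes, was higher in mutants (log2 difference 1.83, SE 0.40, adjusted p = 0.0178, edgeR), as was *Cd3e*, a T cell receptor subunit (1.87, SE 0.42, adjusted p = 0.0195), and the other 6 did not pass the test. The summed level of the 8 was 67.0, 63.7, 21.9 and 51.5 CPM in controls 1 to 4 and 136, 173, 149 and 61.4 CPM in mutants 1 to 4. Control 3 and mutant 4, the lowest of their groups for *Ms4a4b*, were also the lowest of their groups for this sum, while the highest mice differed (controls 2 and 1, mutants 3 and 2). *Ms4a4b* counts were 66.7 to 101% of *Nkg7* counts in controls and 60.6 to 97.4% in mutants. Against *Cd3g* they were 172 to 315% in controls and 155 to 241% in mutants. Both genes were among the 3 most like *Ms4a4b* in the search above, so ratios that overlap between groups follow partly from that likeness. Per the study's methods, cells with the Cre reporter TdTomato were examined for CD45 and CD11b, and CD45 and CD11b positive cells were sorted. How many T cells, NK cells or monocytes passed this gate was not measured here. The part of these cells in the *Ms4a4b* difference was not tested.

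The 7 monocyte and neutrophil markers were detected in every library and none passed the test (median -0.46). Their sum was 515 to 1798 CPM in controls against 294 to 876 in mutants, and in every library it was mostly *S100a8* and *S100a9*. Mutant 1, the lowest mutant for *Ms4a4c*, was the lowest mutant for this sum, whereas the lowest control was control 3 for *Ms4a4c* and control 4 for the sum. *Ms4a4c* counts were 14.6 to 18.98% of those of *Ly6c2*, a monocyte surface protein gene, in controls and 29.8 to 45.8% in mutants. *Ly6c2* and *Plac8* were, like *Ms4a4c*, lowest in control 3 and mutant 1, whereas *Ccr2* was lowest in control 4 and mutant 2. B cell markers included 1 higher gene (*Cd22*, which microglia can also express) and 1 lower (*Ighm*, the IgM heavy chain) of 6. Their sum of 472 to 760 CPM in controls and 116 to 153 in mutants was mostly *Ighm* in controls, and without it, a choice made after seeing the data, the other 5 ran the other way, at 50.3 to 68.97 CPM in controls and 84.2 to 96.9 in mutants. None of the 3 tested mast cell markers passed. *Tpsb2*, a mast cell tryptase, was read in mutants 2 and 3 only, at 4.70 and 9.04 CPM.

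**Figure D3:**
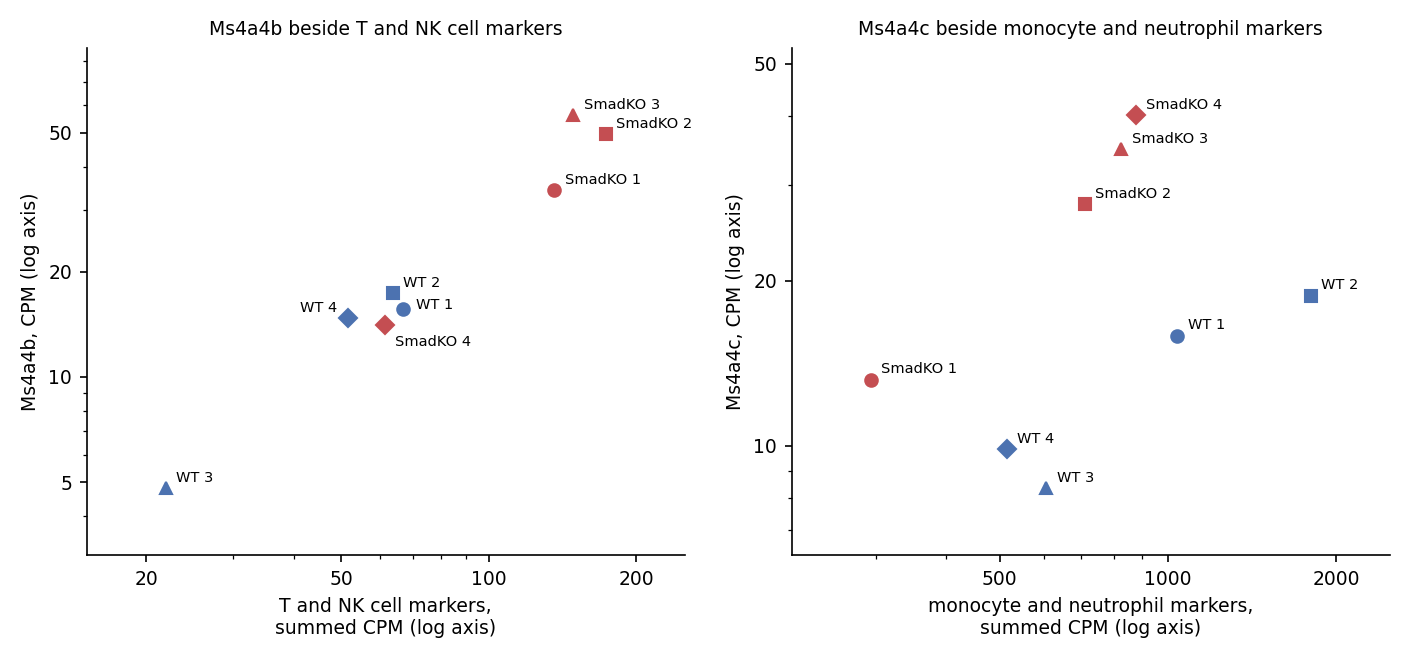
*Ms4a4b* against the summed CPM of 8 T and NK cell markers (left) and *Ms4a4c* against the summed CPM of 7 monocyte and neutrophil markers (right), log axes, 1 point per mouse, blue for WT and red for SmadKO. On the left SmadKO replicate 4 lies with the controls on both axes, and on the right SmadKO replicate 2, 3 and 4 lie above controls that have similar or higher marker sums. The sum on the right is mostly *S100a8* and *S100a9*.

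The rest of the family was measured next, as the rule did not use it. Of 16 other genes, that is 14 Ms4a genes and the related *Tmem176a* and *Tmem176b*, 7 passed the filter and 1 was called. That share of 14.3% was close to the 12.3% called over all tested genes. The called gene, *Ms4a14* (chr19:11301249-11314454, minus strand), starts 6.58 kb beyond the 3′ end of *Ms4a7*. It had 0, 0, 5 and 0 counts in controls and 547, 479, 442 and 124 counts in mutants, which is 14.2, 10.3, 12.3 and 3.42 CPM. The fitted difference was 8.09 (SE 1.10, adjusted p = 0.00174, edgeR), and its size rests on 5 control counts. No control reached 10 counts, so *Ms4a14* passed the filter through the mutants alone, and its call is given as a description. In mutants *Ms4a14* gave 3.01, 1.92, 1.99 and 0.480 counts per 100 *Ms4a7* counts, with mutant 4 lowest although it was highest for *Ms4a7*. *Ms4a14* transcripts shared no 50-base word with transcripts of another gene.

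The lineage genes of the family did not pass the test. *Ms4a1* was at 2.66 to 7.70 CPM in controls and 0.0551 to 5.89 CPM in mutants (difference -0.71, SE 0.94, adjusted p = 0.670). *Ms4a3* was at 0.0258 to 4.42 CPM in controls and at 0 in mutants 2 and 4 (-0.72, SE 1.66, adjusted p = 0.827). *Ms4a4d*, whose coding sequence is 85.7% identical to that of *Ms4a4b* and 87.9% to that of *Ms4a4c*, was at most 1.05 CPM in any library, with all mutants above all controls (1.73, SE 0.70, adjusted p = 0.1398). *Ms4a8a* did not pass (0.86, SE 0.74, adjusted p = 0.494). *Tmem176a* (0.43, SE 0.22, adjusted p = 0.239) and *Tmem176b* (0.18, SE 0.21, adjusted p = 0.626), on another chromosome, were expressed at 252 to 1062 CPM in all libraries and did not pass. *Ms4a2*, *Ms4a12*, *Ms4a15* and *Ms4a20* (listed as 1700017D01Rik) had at most 12 counts in any library, and 5 family genes had no count in any library.

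Genes that carry no family name but lie in the cluster or within 500 kb of it were compared as well. Of 70 such genes 30 were tested, and 5 were higher and 4 lower (30.0% called, against 12.3% of all genes), with a median difference of -0.04. Within the cluster 4 of 7 were called. Without *Gm8369* and *Gm10212*, which resemble Ms4a genes in sequence, 7 of 28 were called (25.0%) and 2 of 5 within the cluster, a choice made after seeing the data. *BE692007*, a noncoding transcript antisense to *Ms4a6c*, rose from 1.38 to 16.0 CPM (3.53, SE 0.34, adjusted p = 3.1e-04, edgeR). *Gm8369* (2.70, SE 0.59, adjusted p = 0.0178) and the pseudogene *Gm10212* (1.52, SE 0.42, adjusted p = 0.0485) were higher, and the pseudogene *Gm6501* was lower (-1.02, SE 0.29, adjusted p = 0.0498). *Gm8369* lies between *Ms4a6c* and *Ms4a6b*, and 372 of its 501 coding bases aligned to *Ms4a4c* at 90.9% identity. *Gm10212* lies between *Ms4a6b* and *Ms4a6d* and shares 50-base words with both.

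Outside the cluster 2 of 23 genes were higher and 3 lower. The nearest measured gene on the left, *Ccdc86*, was 13.03 kb away and lower in mutants (-1.62, SE 0.28, adjusted p = 0.00642), as were *Prpf19*, a splicing factor gene (-0.63, SE 0.17, adjusted p = 0.0444), and *Cyb561a3*, a lysosomal cytochrome b561 gene 366 kb away (-3.10, SE 0.25, adjusted p = 1.1e-04). *Slc15a3*, a lysosomal peptide and histidine transporter gene (0.64, SE 0.17, adjusted p = 0.0417), and *Tmem216* (0.88, SE 0.25, adjusted p = 0.0486) were higher. The nearest on the right, *Mrpl16*, 130 kb away, did not pass (-0.20, SE 0.17, adjusted p = 0.503). *Tmem216*, *Slc15a3*, *Prpf19*, *Gm6501* and *Gm10212* lost the call in most fits without 1 mouse, and 3 to 7 neighbours were called in those fits. The count was 4 without WT replicate 1, 3 without WT replicate 2 or 3, 5 without SmadKO replicate 1, and 4 without SmadKO replicate 2 or 3.

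**Figure D4:**
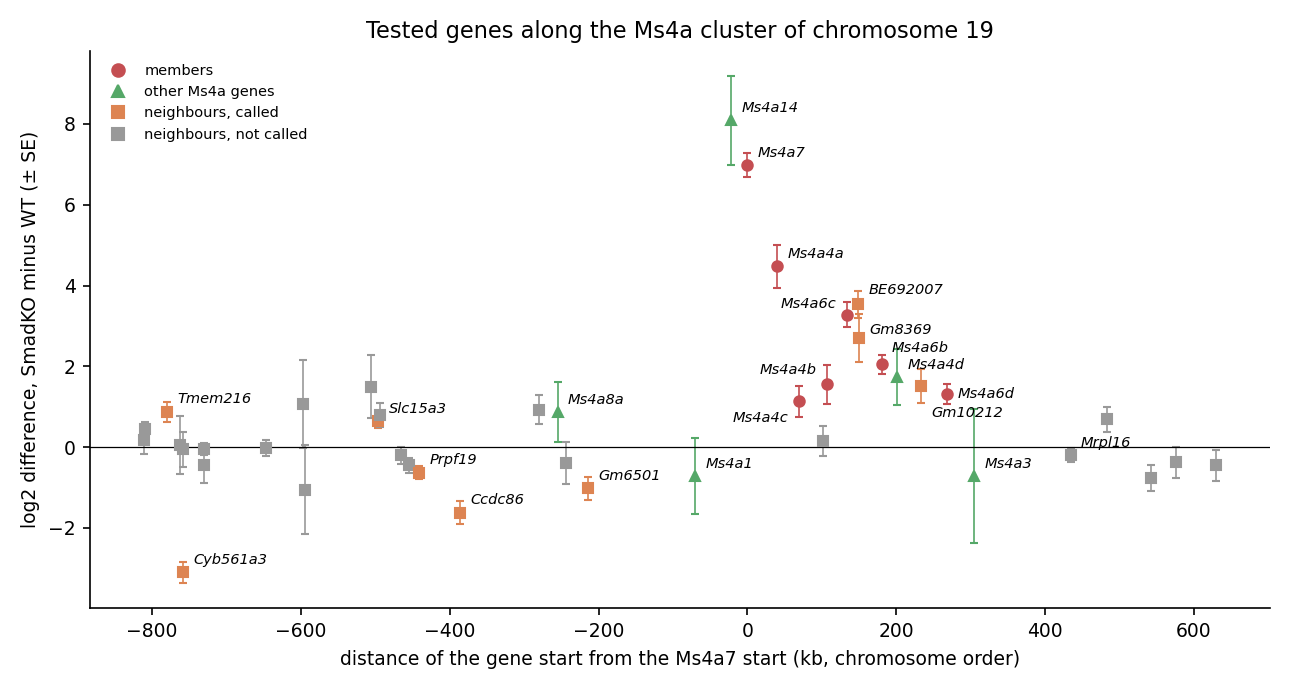
Fitted log2 difference between SmadKO and WT (± SE) of each tested gene against the distance of its start from the *Ms4a7* start in kb, for members (red circles), other Ms4a genes (green triangles) and neighbours (orange squares if called, grey if not). The genes above 2 lie between *Ms4a14* and *Ms4a6b*, and *Ccdc86* and *Mrpl16* on either side of the cluster lie below 0.

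Exons that overlap limit 1 member and the neighbour *BE692007*. Of the exon bases of *Ms4a6c*, 1088 (53.1%) overlap exons of *BE692007* on the other strand, and the libraries were not stranded, so reads there cannot be assigned to a strand. *BE692007* counts were 3.04 to 5.80% of *Ms4a6c* counts in controls and 4.58 to 6.23% in mutants. The other members shared few 50-base words with transcripts of other genes, from 0 of 787 words for *Ms4a4a* to 8.19% for *Ms4a4c*, most of the latter with *Ms4a4b*. *Ms4a6b* shared 117 words with *Ms4a6c* and 40 with *Ms4a6d*, out of 4561.

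Genes whose products are reported to work with Ms4a proteins did not move together. Of 6, *Vsig4*, a complement receptor gene of tissue macrophages, was higher in mutants (276 to 415 CPM against 0.130 to 0.930, difference 9.85, SE 0.61, adjusted p = 4.8e-05, edgeR). *Clec7a* (Dectin-1) was higher as well (60.4 to 99.5 CPM against 10.5 to 24.4, 2.47, SE 0.32, adjusted p = 0.00133). *Trem2*, the lipid-sensing microglial receptor gene whose soluble product varies with MS4A genotype in humans, was lower (341 to 514 CPM against 869 to 1452, -1.35, SE 0.23, adjusted p = 0.00496). Its signalling adaptor *Tyrobp* did not pass (0.02, SE 0.20, adjusted p = 0.971), nor did the sheddase genes *Adam10* (-0.48, SE 0.24, adjusted p = 0.225) and *Adam17* (-1.04, SE 0.31, adjusted p = 0.0578). The median of the 6 was -0.23.

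Of 12 border macrophage markers 9 were higher and none lower (75% called, against 12.3% of all tested genes, median difference 2.91). The largest were *Clec4n* (Dectin-2; 6.71, SE 0.43, adjusted p = 4.8e-05), *Pf4*, a platelet and macrophage chemokine (6.48, SE 0.34, adjusted p = 2.7e-05), and *Mrc1*, the mannose receptor (4.88, SE 0.31, adjusted p = 4.8e-05), by edgeR. The remaining 3 were *Lyve1* (1.86, SE 0.68), *F13a1* (0.19, SE 0.36) and *Cd209f* (2.36, SE 1.29). The summed level of the list was 209 to 281 CPM in controls and 1933 to 2643 CPM in mutants, with *Cd209f* at 0 in at least 1 library.

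Of 12 interferon-stimulated genes 7 were higher and none lower (58.3% called, against 12.3% of all tested genes, median difference 2.10). The largest were *Oasl2*, a 2′-5′ oligoadenylate synthetase-like gene (4.52, SE 0.66, adjusted p = 0.00267), *Ifi204*, a nucleic acid sensor of the HIN-200 family (3.45, SE 0.56, adjusted p = 0.00435), and *Usp18*, which removes ISG15 from proteins (2.67, SE 0.55, adjusted p = 0.0139), by edgeR. The summed level was 72.6 to 179 CPM in controls and 381 to 581 CPM in mutants. The highest and the lowest mouse of each group were the same for this sum as for *Ms4a4b*, whereas mutant 4, the lowest mutant for the sum, was the highest for *Ms4a4c*.

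**Figure D5:**
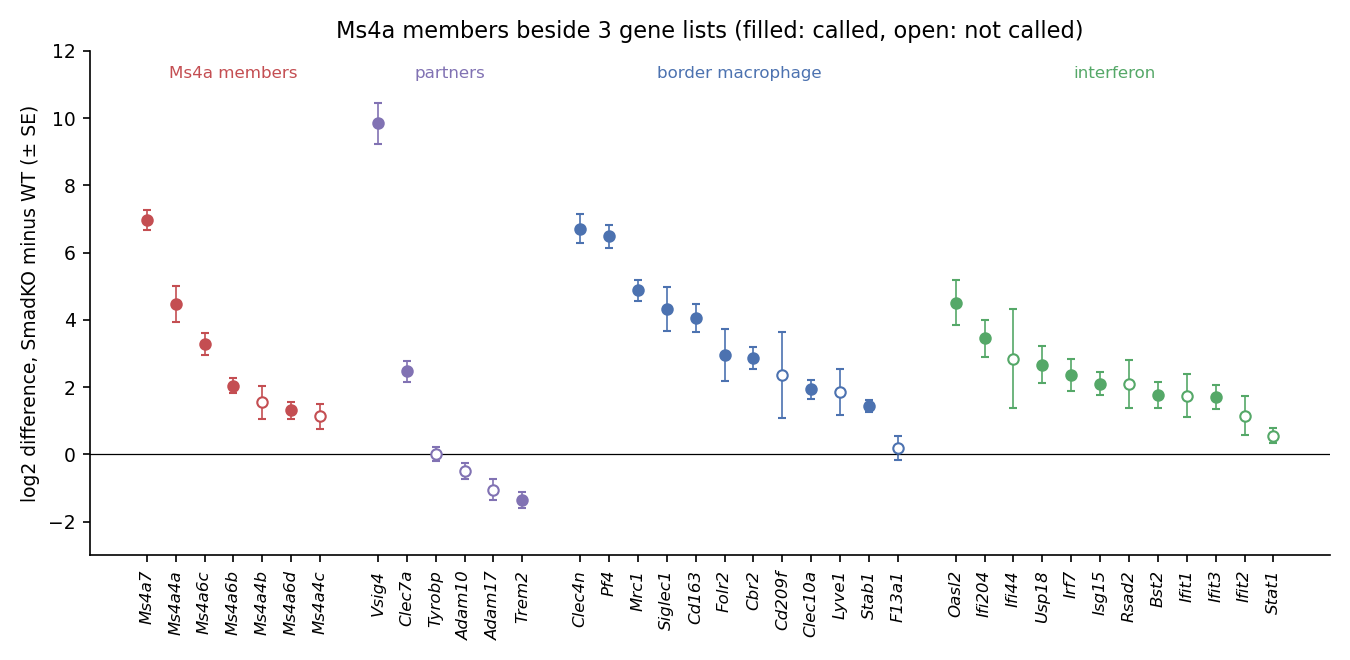
Fitted log2 difference between SmadKO and WT (± SE) of the 7 members, 6 genes of reported partners, 12 border macrophage markers and 12 interferon-stimulated genes, ordered by size within each list, filled if called at an adjusted p-value under 0.05 and open if not. All members lie above 0, as do the border macrophage and interferon genes, and the partners run from 9.85 for *Vsig4* to -1.35 for *Trem2*.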

How the data were processed

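RNA from sorted microglia of 8 mice was sequenced. Per the study's methods, the authors used Rsubread for alignment to mm10 and featureCounts for gene counts. The deposited values are raw counts per gene and library. The methods describe paired-end NEBNext Ultra II libraries and the labels single-end Nextera XT libraries, both unstranded. Versions, annotation and strand setting of the counting are not given in the sources used here. For the mutant microglia the methods cite a different deposit, so the link to this series rests on the labels. The authors also deposited their DESeq2 (1.28 in the submitters' processing notes) comparison with fold changes and p-values, which was not used.

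Genes that reached 10 counts in 4 libraries were compared with edgeR 4.0.16 in R 4.3.3, with TMM scaling, a quasi-likelihood test (glmQLFit, glmQLFTest) and Benjamini-Hochberg adjustment, all genes together. Calls needed an adjusted p-value under 0.05, and SE is the log2 difference divided by the square root of F. CPM used TMM-scaled totals, and log2 CPM a prior count of 2. The biological coefficient of variation (0.542) exceeded counting noise for well-read genes. The labels do not say whether replicates came from separate preparations beyond being separate mice. Of 55573 gene identifiers 55480 matched GENCODE M21. Promoters came from RefSeq (GRCm38.p6), and coding sequences were rebuilt from GENCODE and aligned with Biopython 1.88.

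Members and lists were chosen with earlier results of these data known. Named were the 7 members, every other family gene with a count, called neighbours and the nearest measured neighbour on each side, the 3 called genes with the largest difference of the partner, border macrophage and interferon lists, the 3 genes most like each member, the targeted genes and sex-linked genes. *Cd3e*, *Ly6c2*, *Plac8*, *Ccr2*, *S100a8*, *S100a9* and *Tpsb2* and the uncalled border macrophage markers and partners were named after their values were seen. Alternatives were DESeq2 1.42.0, RLE factors, library totals, no filter, 10 counts in all 8 libraries, a replicate block, and fits that left out 1 mouse each. On simulated counts edgeR recovered the size of the changes but missed most changed genes when these were drawn from all expression levels, so a gene that did not pass may still differ.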

Additional observations from a re-analysis of the deposited data

Results flagged for a closer look

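Dixon's test, which flags about 1 in 20 groups of 4 by chance, was applied to 32 groups (16 genes in 2 genotypes). *Ms4a8a* was at 6.89 CPM in SmadKO replicate 4, whereas mutants 1 to 3 had 0.804 to 1.34. Without that mouse its difference was -0.38 (SE 0.51). *Ms4a14* was at 0.1397 CPM (5 counts) in WT replicate 3 and at 0 in the other controls.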

How the results depend on the processing

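Each of 7 members kept the sign of its difference, within 1 SD between mice, in all 14 alternative fits. They were selected on this contrast, so their calls say nothing of stability. The calls over all genes numbered 2485 (878 higher, 1607 lower) and 4738 with DESeq2, which called all 7 members. Library totals moved the median of all genes by 0.12 on the log2 scale and the members' median to 2.15. Of other Ms4a family genes 0 were called with 10 counts in all 8 libraries, a filter that removes *Ms4a14*. Of 30 neighbours 9 were called, and 5 with the replicate block. Without a filter 4 of 54 were called, and 7 of 28 with *Gm8369* and *Gm10212* set aside. Same-numbered mice deviated together with correlations of 0.0183 to 0.166, under 0.1 for number 2, and not every mouse correlated best with its own number, so the numbers were not taken to pair the mice. With the replicate block the members' median was 2.01 and 5 were called. *Ms4a8a* ranged from -0.38 without SmadKO replicate 4, a reversal, to 1.16 without SmadKO replicate 1. With each mouse left out, calls ranged from 1567 to 2499 over all genes (1572 without WT replicate 2, 1567 without WT replicate 3), 5 to 6 members, 1 of the other family genes, 3 to 7 neighbours, 8 to 9 border macrophage markers, 3 to 4 partners and 7 to 8 interferon-stimulated genes, and the members' median from 1.92 to 2.19. Among 30 other named genes 354 values kept their sign and lost no call, which includes genes not called in the main fit, such as *Ms4a1* and *Tmem176b*. A further 60 values lost their call and 1 reversed. The cause was not tested. All 21 most similar genes were the same with a prior count of 0.5. At 4 mice per group the spread between mice limits *Ms4a4b* and *Ms4a4c*, and counts of at most 12 limit *Ms4a2*, *Ms4a12*, *Ms4a15* and *Ms4a20*.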
